A study of Homo sapiens with 16 samples.

Results

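Cadherins and protocadherins are membrane proteins whose extracellular repeats bind calcium and hold neighbouring cells together. The genes described here are the 84 rows, of 39007 in the deposited expression table, whose symbol is CDH or PCDH with a number, or PCDHA, PCDHB, PCDHGA, PCDHGB or PCDHGC with a number, with pseudogenes and the X- and Y-linked pair left out. They comprise 23 CDH genes, 11 PCDH genes, 13 alpha, 15 beta and 22 gamma protocadherins.

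RNA was measured in T24 cells, a human bladder carcinoma line, and in GRC1, a single line that the study derived from T24 by repeated rounds of gemcitabine, a nucleoside analogue that blocks DNA synthesis. The groups are the untreated parent (P0) and the GRC1 line at its early (P3), intermediate (P7) and late (P15) phases, with 4 libraries each and 16 in all. All groups grew in the same serum-containing medium. GRC1 is 1 derived line, so drug exposure and time in culture cannot be told apart. The labels do not say that the 4 libraries of a phase came from separate cultures, so the p-values measure only the spread between libraries, which may be technical.

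Classical cadherins bind a partner of the same kind on the next cell and are tied to the actin cytoskeleton by catenins. Type I members include CDH1 (E-cadherin, the main cadherin of epithelia) and CDH2 (N-cadherin, abundant in neural and mesenchymal cells), and an exchange of the former for the latter is a usual mark of epithelial cells that take on a mesenchymal form. Type II members include CDH5 (VE-cadherin of endothelium). Protocadherins adhere more weakly: the delta genes are scattered over the genome, whereas the alpha, beta and gamma genes stand in tandem on chromosome 5 and give neurons a combinatorial surface identity. In the alpha and gamma clusters each variable first exon is spliced to constant exons shared by the whole cluster, while each beta gene is a single variable exon.

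Coordinates below are those of GENCODE version 44 on GRCh38, in which all 84 symbols were found. Of these, 57 lay on chromosome 5. The alpha cluster spans chr5:140786136-141012347, the beta cluster chr5:141094606-141249365 and the gamma cluster chr5:141330514-141512977. In the median, 51.8% of the exon bases of an alpha gene and 43.8% of those of a gamma gene also belonged to another gene, against 6.8% for a beta gene. The authors' settings for reads on shared exons and on the opposite strand are not given in the sources used here. PCDHGA2 and PCDHGC3 each share 2177 exon bases with the other gamma genes, yet averaged 0.0398 and 128.6 CPM in P0. Reads on those bases were thus not credited in full to every gamma gene. Values of single alpha and gamma genes are less certain than those of beta genes, and near-identical copies may exchange reads in all 3 clusters.

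The promoters of the clustered genes are known for a conserved element with the letters CGCT, which the architectural protein CTCF binds. To show what the clusters shared apart from their expression, the RefSeq promoter windows (GRCh38.p14, 250 bases before to 50 after the transcription start) were read for the 65 members that have one. The words GTGGCGCT, ATGTCGCT and GCCGCTGT, which all hold CGCT, were written down after looking at these windows and at the expression values and were searched on both strands. The first was present in 13 of 13 beta windows, in 0 of 11 alpha, 0 of 20 gamma and 0 of 21 other member windows, and in 1.15% of all 35116 windows. The word ATGTCGCT was found in 9 of 11 alpha windows and in 0.234% of all windows. For GCCGCTGT the counts were 11 of 20 gamma windows and 1.63% of all windows, and among the other members CDH2 held it.

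The stretches that follow show the beta word in capitals, 5′ to 3′ on the plus strand and ending before the transcription start. They were taken from 4 genes whose P15 libraries were all above every other library and from 2 (PCDHB9 and PCDHB15) for which this was not so. Their positions are chr5:141094524-141094583 for PCDHB2, chr5:141135159-141135205 for PCDHB5, chr5:141213845-141213904 for PCDHB13, chr5:141223243-141223302 for PCDHB14, chr5:141187054-141187113 for PCDHB9 and chr5:141245294-141245353 for PCDHB15.
PCDHB2: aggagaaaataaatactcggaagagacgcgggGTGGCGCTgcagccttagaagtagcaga
PCDHB5: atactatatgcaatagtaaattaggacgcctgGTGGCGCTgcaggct
PCDHB13: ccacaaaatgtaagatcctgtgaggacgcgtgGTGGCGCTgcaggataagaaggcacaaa
PCDHB14: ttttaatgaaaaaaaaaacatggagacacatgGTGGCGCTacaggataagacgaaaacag
PCDHB9: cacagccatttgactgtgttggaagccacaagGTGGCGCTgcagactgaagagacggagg
PCDHB15: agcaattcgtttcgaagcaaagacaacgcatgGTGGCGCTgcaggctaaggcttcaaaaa

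The word began between 15 bases (PCDHB5) and 75 bases (PCDHB9) before the start. It was present in 7 of 7 windows of beta genes with all P15 libraries on top and in 6 of 6 windows of the remaining beta genes, so its presence did not separate them.

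For the alpha cluster the word ATGTCGCT is shown in capitals for PCDHA4 (chr5:140806959-140807018), the alpha gene with the highest level in P15, for PCDHA2 (chr5:140794761-140794820), which had low values in P15 only, and for PCDHA1 (chr5:140786066-140786125), which was at 0 in all P15 libraries.
PCDHA4: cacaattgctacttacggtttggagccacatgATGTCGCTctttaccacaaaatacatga
PCDHA2: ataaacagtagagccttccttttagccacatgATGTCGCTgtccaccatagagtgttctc
PCDHA1: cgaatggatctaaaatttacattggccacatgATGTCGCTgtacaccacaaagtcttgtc

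For the gamma cluster the word GCCGCTGT is shown for PCDHGB5 (chr5:141397845-141397904), PCDHGA9 (chr5:141402696-141402755) and PCDHGC3 (chr5:141475862-141475921), whose P15 libraries were all below every other library, and for PCDHGA8 (chr5:141392550-141392609) and PCDHGB6 (chr5:141407906-141407965), for which they were not.
PCDHGB5: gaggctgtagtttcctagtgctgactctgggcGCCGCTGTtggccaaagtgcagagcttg
PCDHGA9: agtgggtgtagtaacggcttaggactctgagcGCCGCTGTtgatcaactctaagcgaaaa
PCDHGC3: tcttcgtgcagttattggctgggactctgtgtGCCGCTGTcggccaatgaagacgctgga
PCDHGA8: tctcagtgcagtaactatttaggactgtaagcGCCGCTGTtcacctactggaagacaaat
PCDHGB6: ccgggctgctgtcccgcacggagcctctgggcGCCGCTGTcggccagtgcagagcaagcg

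Of the gamma windows whose genes had all P15 libraries at the bottom, 5 of 9 held the word, and so did 6 of 11 of the remaining gamma windows.

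Values are log2(CPM + 1), where CPM are the counts of a gene scaled to the library total. From the spacing of the lowest values, library totals of 33.8 to 50.02 (in units of 1e6 counts) were estimated, so that 1 count was worth 0.02 to 0.0296 CPM and 3 counts, taken as the detection floor of a library, 0.06 to 0.0888 CPM. Floors and fold bounds cover counting error only. Of the 84 members, 83 were above 0 in at least 1 library, 33 were above 0 in all 16, and PCDHA12 was listed at 0 throughout. The 21 members with a mean above 1 CPM were tested with limma on the log2 values together with all 13249 such genes, and 63 members were below this level. A gene was called higher or lower at a Benjamini-Hochberg adjusted p below 0.05 with at least a 2-fold change on this scale, which understates the change of low genes. In P3 replicate 3, 7 of 7 fibroblast marker genes were above the other 3 libraries of that phase, summing to 6.16 CPM against 1.78 to 2.48 CPM. Leaving this library out altered none of the counts of called members.

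Of the 21 tested members, late phase P15 had 7 lower than parental P0 (PCDH1, PCDHGB5, CDH5, CDH13, CDH4, PCDHGC3 and PCDH17) and 2 higher (PCDHB2 and PCDHB14). Over all genes tested, 11.4% were lower and 12.1% higher in this comparison. The median log2 fold change was -0.73 for the members and 0.04 for all genes tested. Against intermediate P7, 10 members were lower in P15 and 2 higher, beside 12.1% lower and 13.4% higher over all genes, and the medians were -0.84 and 0.06. The earlier steps moved fewer members. Early P3 had 3 members higher than P0 and 1 lower (1.95% and 2.51% of all genes), P7 had 2 higher than P3 and 1 lower (0.996% and 0.845%), and P7 had 4 higher than P0 and 2 lower (1.86% and 1.52%). These comparisons share libraries and are not independent of each other. A member enters the test only when its mean passes 1 CPM, so these counts describe the 21 and not the family. Some members, such as CDH5 and PCDHB2, passed it only through the phase where they were highest, so their calls are descriptions.

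**Figure D1:**
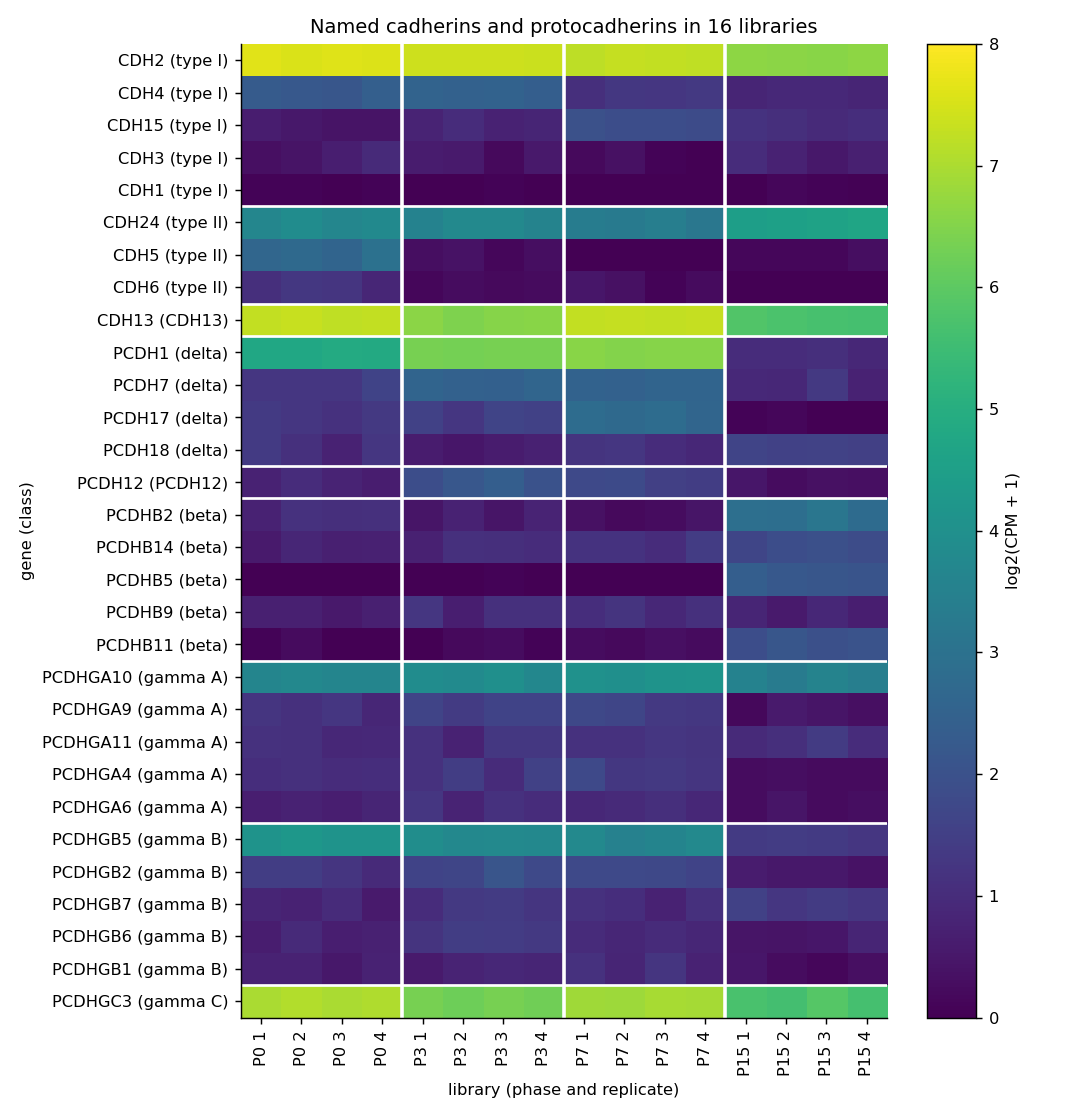
Level of the 30 named members (rows, grouped by class) in the 16 libraries (columns, by phase and replicate), with colour for log2(CPM + 1) from 0 to 8. CDH2, CDH13 and PCDHGC3 stayed above 5.6 in every library, while PCDH1 was above 4.7 in P0, P3 and P7 and at most 1.08 in P15.

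Per kilobase of exon, the order of the most abundant members in P0 was PCDHGC3 at 23.7 CPM per kb, CDH2 at 22.5, CDH13 at 13.9, PCDH1 at 4.58, PCDHGB5 at 3.39 and CDH24 at 3.37. In P15 it was CDH2 at 11.4 CPM per kb, PCDHGC3 at 9.46, CDH24 at 6.14, CDH13 at 4.69, PCDHB2 at 1.64 and PCDHGA10 at 1.52. PCDH1 had left the top of this order at 0.168 CPM per kb, and CDH24 had moved up in it. The order depends on the shared gamma exons, which make up 40.1% of the exon bases of PCDHGC3. Reads on them were not credited in full to every gamma gene, so values per kilobase of all exons may understate gamma genes. Per kilobase of unshared exon, PCDHGC3 (15.8 CPM) stood above CDH2 (11.8 CPM) in P15, and PCDHGB5 (6.12 CPM) above PCDH1 (4.58 CPM) in P0.

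Type I cadherins were carried almost wholly by CDH2 (chr18:27932879-28177946, minus strand). Its levels were 7.65, 7.56, 7.61 and 7.59 in the P0 libraries, 7.38, 7.40, 7.40 and 7.37 in P3, 7.21, 7.31, 7.25 and 7.23 in P7 and 6.65, 6.62, 6.58 and 6.64 in P15. The 4 phases did not overlap and each was below the one before it. The log2 difference from P0 was -0.22 in P3, -0.35 in P7 and -0.98 ± 0.03 (SE) in P15 (limma, adjusted p = 1.2e-19), which is just inside the 2-fold limit, so CDH2 was not called. With each library shifted to the same median the last value was -1.0025 and the gene passed. In linear units CDH2 averaged 193.4 CPM in P0 and 97.5 CPM in P15. In separate mRNA and protein measurements the study reported more NCAD, its name for CDH2, in P15 than in P0. The sequencing values given here go the other way.

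CDH1 (chr16:68737292-68835537, plus strand) was at or close to 0 in every phase. Its values were 0.07, 0.08, 0.00 and 0.08 in P0, 0.00 in all P3 libraries except replicate 3 with 0.07, 0.00 in all P7 libraries, and 0.00, 0.13, 0.08 and 0.06 in P15. The mean over the 16 libraries was 0.0255 CPM, close to 1 count per library. In separate mRNA and protein measurements the study reported less ECAD, its name for CDH1, in P15 than in P0. In the sequencing values CDH1 averaged 0.0409 CPM in P0 and 0.0484 CPM in P15. These values show no fall, but they lie below the floor of 3 counts and cannot decide the direction. P-cadherin, the product of the neighbouring CDH3, was also low, with 0.34, 0.41, 0.66 and 0.96 in P0, 0.61, 0.58, 0.20 and 0.56 at P3, 0.21, 0.36, 0.08 and 0.00 at P7 and 1.00, 0.75, 0.53 and 0.70 at P15. The ranges of P0 and P15 overlapped, and neither gene reached the level needed for the test. Per kilobase of exon, the P0 means were 22.5 CPM for CDH2 and 0.007 CPM for CDH1.

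CDH4 (R-cadherin, described in retina and kidney, chr20:61252261-61940617) and CDH15 (M-cadherin of muscle, chr16:89171748-89195492) moved at P7. CDH4 lay at 2.29, 2.19, 2.13 and 2.43 in P0, 2.56, 2.49, 2.53 and 2.40 at P3, 1.09, 1.30, 1.27 and 1.34 at P7 and 0.83, 0.92, 0.92 and 0.83 at P15. P0 and P3 overlapped, and P7 and P15 were below both. CDH4 fell by 1.25 ± 0.09 (SE) on the log2 scale from P3 to P7 (limma, adjusted p = 1.8e-11) and was lower in P15 than in P0 (-1.39, adjusted p = 2e-13). Its difference between P7 and P0 (-1.01) was on the limit and was no longer called without P0 replicate 4 (-0.9533), without P7 replicate 1 (-0.9567), with the median shift (-0.9925), with quantile normalization (-0.9637) or with a pseudocount of 5 (-0.463). The CDH4 calls between P3 and P7 and between P0 and P15 were also lost with a pseudocount of 5 (-0.595 and -0.5923).

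CDH15 lay at 0.64, 0.53, 0.43 and 0.42 in P0, 0.80, 1.00, 0.75 and 0.82 at P3, 1.99, 1.90, 1.88 and 1.84 at P7 and 1.16, 1.08, 0.94 and 1.06 at P15. The P7 libraries were above all others. CDH15 rose by 1.06 ± 0.09 (SE) from P3 to P7 (limma, adjusted p = 7.6e-10), a call lost with a pseudocount of 5 (0.42). The gene reached a mean of 1 CPM through its P7 libraries, so this call is a description of it. From P7 to P15 the difference was -0.84, short of the 2-fold limit.

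**Figure D2:**
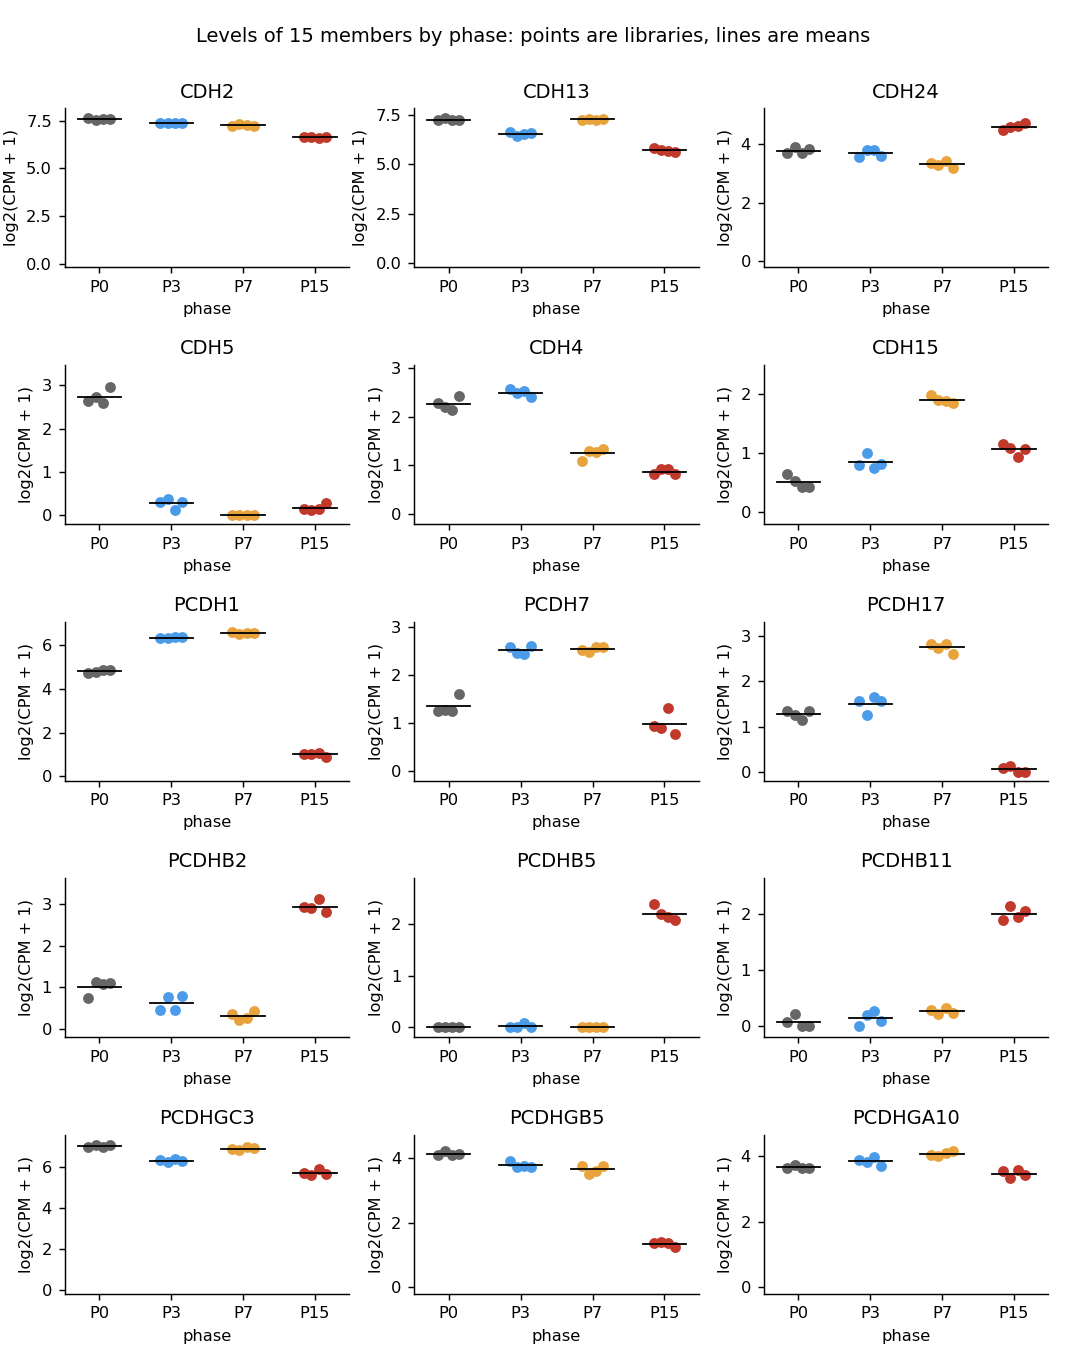
Levels of 15 members on the log2(CPM + 1) scale in phases P0, P3, P7 and P15, 1 panel per gene with its own vertical axis starting just below 0, points for the 4 libraries of a phase and a line for their mean. PCDH1 lay between 4.75 and 6.59 in the first 3 phases and between 0.88 and 1.08 in P15, while PCDHB5 was above 2 in P15 only.

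Type II cadherins differed among themselves. CDH24 (chr14:23047062-23057538, minus strand), a type II gene that binds catenins, lay at 3.68, 3.90, 3.68 and 3.81 in P0, 3.54, 3.78, 3.78 and 3.57 at P3, 3.36, 3.29, 3.41 and 3.16 at P7 and 4.47, 4.55, 4.61 and 4.70 at P15. All P15 libraries were above all others. It rose by 1.28 ± 0.08 (SE) from P7 to P15 (limma, adjusted p = 5.4e-14), while the log2 difference between P15 and P0 was 0.82 and was not called. In linear units, the mean was 12.6 CPM in P0, 8.90 CPM in P7 and 23.0 CPM in P15.

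CDH5, VE-cadherin of endothelium (chr16:66366690-66404784), went the other way. Its levels were 2.64, 2.74, 2.59 and 2.97 in P0, 0.31, 0.38, 0.13 and 0.31 in P3, 0.00 in all 4 P7 libraries and 0.14, 0.13, 0.15 and 0.29 in P15. The P0 libraries were far above the others. CDH5 fell by 2.45 ± 0.10 (SE) on the log2 scale at P3 (limma, adjusted p = 1.7e-16) and was lower in P7 and P15 than in P0 (-2.74 and -2.56). It reached a mean of 1 CPM through its P0 libraries, so these calls describe the gene and give no separate support. Its P0 mean of 5.69 CPM was at least 66.1-fold higher than the per-library floor of 3 counts in P7. The endothelial markers PECAM1, VWF, KDR, TEK and CLDN5 together summed to 0.87 to 1.32 CPM in P0, 0.24 to 0.54 in P3, 0.37 to 1.06 in P7 and 0.29 to 0.98 in P15, with none of the 5 reaching the level for the test. PECAM1 was the highest of them (0.78 to 1.08 in P0), and KDR, TEK and CLDN5 were at 0.00 in all P15 libraries. All libraries are of a cultured carcinoma line, and any link of these markers with the differences of CDH5 and of PCDH12 was not tested.

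CDH6 (K-cadherin of kidney, chr5:31193686-31329146) was at 1.08, 1.30, 1.22 and 0.85 in P0, 0.15, 0.26, 0.20 and 0.24 in P3, 0.48, 0.36, 0.08 and 0.24 in P7 and 0.00 in all P15 libraries. P0 was above every other library. Its P0 mean of 1.18 CPM was at least 14.1-fold higher than the floor in P15. In the fit without a filter on low values its log2 difference of P15 from P0 was -1.11. CDH6 is named because of its P0 mean, so this value is a description and no test. Of the other type II genes, CDH8 had the highest single value (1.13, in P0 replicate 3), with 0.80 to 1.13 in P0, 0.06 to 0.14 in P7 and 0.68 to 0.95 in P15. Summed over the 13 type II genes, the level was 21.6 ± 1.7 CPM (SD, n = 4) in P0, 12.98 ± 1.31 at P3, 10.2 ± 0.8 at P7 and 24.6 ± 1.8 at P15.

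CDH13 (T-cadherin, chr16:82626965-83800640) has no cytoplasmic tail, is held in the membrane by a GPI anchor and binds adiponectin. It lay at 7.25, 7.34, 7.24 and 7.26 in P0, 6.62, 6.45, 6.56 and 6.58 at P3, 7.25, 7.30, 7.27 and 7.29 at P7 and 5.83, 5.74, 5.66 and 5.64 at P15. P0 and P7 overlapped, P3 was below both, and P15 was below all. CDH13 was lower in P15 than in P0 and P7 (log2 differences -1.56 and -1.56, SE 0.04; limma, adjusted p = 5.8e-21 and 5e-21). The differences of P3 from P0 (-0.72, adjusted p = 1.8e-13) and of P7 from P3 (0.73, adjusted p = 4.6e-13) passed the adjusted p and not the 2-fold limit. Of its exon bases, 21.4% overlap the antisense gene CDH13-AS2, whose reads cannot be told apart from those of CDH13 without strand.

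Delta protocadherins included PCDH1, which had the largest difference of the 21 tested members in these 5 comparisons. PCDH1 (chr5:141853090-141879246, minus strand), a protocadherin of airway epithelium and other epithelia that lies beyond the gamma cluster, was at 4.75, 4.77, 4.88 and 4.85 in P0, 6.35, 6.33, 6.37 and 6.37 at P3, 6.59, 6.50, 6.56 and 6.55 at P7 and 1.00, 1.02, 1.08 and 0.88 at P15. The 4 phases did not overlap. PCDH1 rose by 1.54 ± 0.05 (SE) at P3 (limma, adjusted p = 2.7e-18), differed by 0.20 between P3 and P7, and fell by 5.56 on the log2 scale from P7 to P15 (adjusted p = 1.4e-30). In linear units the means were 27.1 CPM in P0, 80.9 at P3, 92.7 at P7 and 0.996 at P15.

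PCDH7 (chr4:30720369-31146805), PCDH17 (chr13:57631744-57729311) and PCDH12 also peaked between P0 and P15. PCDH7, which is expressed in brain and heart, lay at 1.25, 1.28, 1.26 and 1.61 in P0, 2.59, 2.47, 2.45 and 2.62 at P3, 2.52, 2.48, 2.59 and 2.59 at P7 and 0.93, 0.90, 1.32 and 0.77 at P15. P3 and P7 overlapped and were above all libraries of P0 and P15, which overlapped each other through P15 replicate 3. It rose by 1.18 ± 0.11 (SE) at P3 (limma, adjusted p = 6.9e-10) and fell by 1.57 on the log2 scale from P7 to P15 (adjusted p = 8.6e-13), and both calls were lost with a pseudocount of 5 (0.58 and -0.72).

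PCDH17, a synaptic protocadherin of the brain, was at 1.35, 1.25, 1.15 and 1.34 in P0, 1.56, 1.26, 1.65 and 1.56 at P3, 2.83, 2.74, 2.83 and 2.62 at P7 and 0.07, 0.13, 0.00 and 0.00 at P15. It was highest in P7 and at or near 0 in P15. It rose by 1.25 ± 0.09 (SE) from P3 to P7 (limma, adjusted p = 8e-11) and fell by 2.71 on the log2 scale at P15 (adjusted p = 1.4e-18). With a pseudocount of 5 the rise was 0.65 and not called, and neither was the difference of P15 from P0 (-0.35). PCDH18 differed from these genes, with 1.51 to 1.64 in P15 against 0.76 to 1.37 in P0, 0.48 to 0.72 in P3 and 0.90 to 1.26 in P7. Its P15 libraries were above all others, although no comparison that was run reached 2-fold on the log2(CPM + 1) scale. In linear units its means were 1.21 CPM in P0, 0.526 at P3, 1.15 at P7 and 1.97 at P15. With a pseudocount of 0.1 the difference of P3 from P0 was -1.02 and called. Summed over the 9 delta genes, the level was 31.5 ± 1.2 CPM (SD, n = 4) in P0, 88.1 ± 1.7 at P3, 104.5 ± 2.7 at P7 and 4.08 ± 0.54 at P15, and PCDH1 made up most of it in the first 3 phases.

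PCDH12 (chr5:141943581-141969741), first described in endothelium, is neither a delta nor a clustered gene. Its levels were 0.78, 1.03, 0.79 and 0.64 in P0, 1.90, 2.17, 2.38 and 2.00 at P3, 1.77, 1.80, 1.52 and 1.45 at P7 and 0.49, 0.28, 0.35 and 0.34 at P15. P3 was above all others and P15 below all others. PCDH12 rose by 1.30 ± 0.11 (SE) at P3 (limma, adjusted p = 4.4e-10) and fell by 1.27 on the log2 scale from P7 to P15 (adjusted p = 1.9e-10). Both calls were lost with a pseudocount of 5 (0.53 and -0.43).

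**Figure D3:**
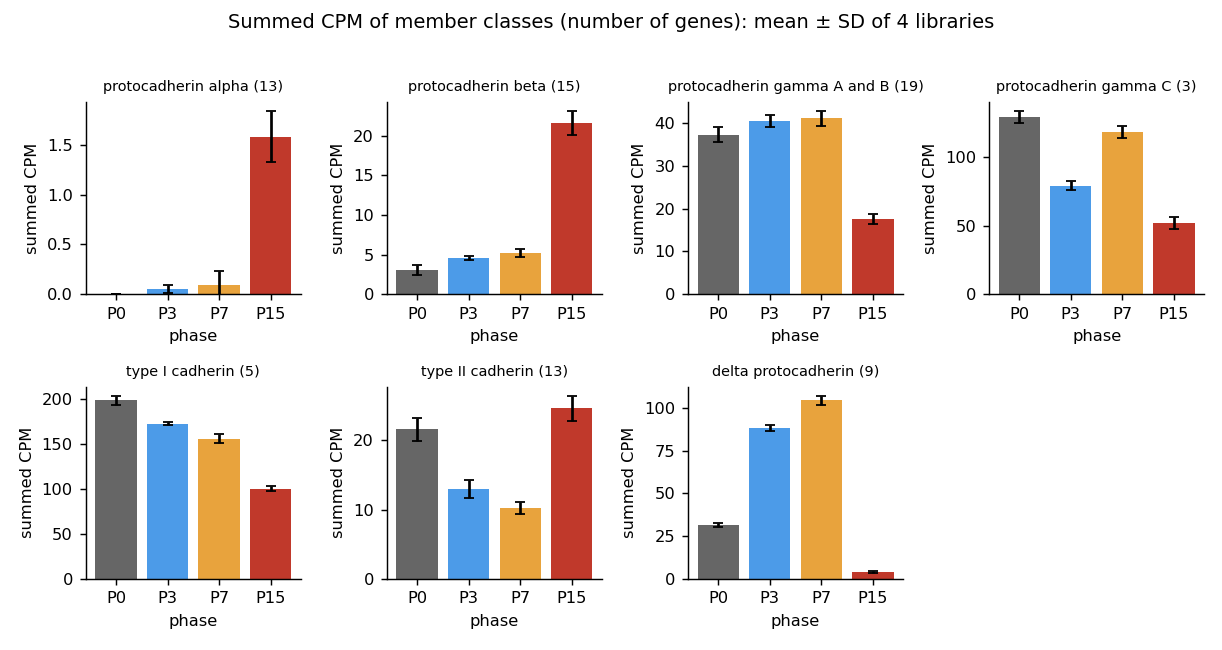
Summed CPM of 7 classes of members by phase, bars for the mean and error bars for the SD of 4 libraries, each panel with its own axis from 0 and the number of genes in parentheses. The beta sum was 21.7 CPM in P15 and at most 5.196 CPM before, and the delta sum was 4.08 CPM in P15 and at least 31.5 CPM before.

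Beta protocadherins had a higher sum in P15 than before. The sum over 15 genes was 3.07 ± 0.65 CPM (SD, n = 4) in P0, 4.58 ± 0.24 at P3, 5.196 ± 0.539 at P7 and 21.7 ± 1.5 at P15. In 9 of the 15 genes (PCDHB2, PCDHB14, PCDHB5, PCDHB11, PCDHB13, PCDHB6, PCDHB8, PCDHB3 and PCDHB4) all P15 libraries were above every other library, and in 0 were they below. Over all 33331 rows with a value above 0, 17.6% had all P15 libraries above the others and 13% all below. PCDHB2 and PCDHB14, the 2 tested beta genes, reached a mean of 1 CPM through their P15 libraries, so that their calls as higher in P15 are a description of these genes and no support for the class.

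PCDHB2 (chr5:141094606-141098703, plus strand) lay at 0.75, 1.14, 1.07 and 1.10 in P0, 0.45, 0.76, 0.45 and 0.80 at P3, 0.37, 0.21, 0.26 and 0.44 at P7 and 2.93, 2.90, 3.13 and 2.81 at P15. P15 was above all others by a wide gap. PCDHB2 rose by 2.62 ± 0.11 (SE) from P7 to P15 (limma, adjusted p = 6.1e-17) and was 1.93 higher than in P0 (adjusted p = 3.5e-14). With a pseudocount of 5 the latter was 0.96 and not called. Of its exon bases, 43.9% overlap PCDHB1-AS1, and reads of this overlapping gene could be counted with it.

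PCDHB14 (chr5:141223343-141227759) was at 0.59, 0.87, 0.69 and 0.74 in P0, 0.73, 1.10, 1.08 and 1.00 at P3, 1.16, 1.16, 1.03 and 1.41 at P7 and 1.68, 1.90, 1.95 and 1.86 at P15. Its P15 libraries were above all others by a smaller gap. It rose by 1.13 ± 0.11 (SE) from P0 to P15 (limma, adjusted p = 5.2e-10), and the call was lost with a pseudocount of 5 (0.43) and with quantile normalization (0.97).

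PCDHB5 (chr5:141135206-141138615) did not exceed the floor of 3 counts in any library before P15. It was listed at 0.00 in all P0 and P7 libraries and in 3 P3 libraries, with 0.07 in P3 replicate 3, and at 2.40, 2.20, 2.15 and 2.08 in P15. Its P15 mean of 3.63 CPM was at least 41.6-fold higher than the per-library floor in P0 and at least 42.2-fold higher than that in P7. PCDHB11 (chr5:141199610-141203779) had 0.07, 0.22, 0.00 and 0.00 in P0, 0.00, 0.20, 0.26 and 0.08 at P3, 0.28, 0.21, 0.33 and 0.24 at P7 and 1.89, 2.14, 1.94 and 2.06 at P15. Both genes missed the 1 CPM mean because they were low in 3 of the 4 phases. In the fit without a filter the log2 differences of P15 from P0 were 2.21 and 1.94. Both genes are named because of their P15 means, so these values are descriptions and no test.

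PCDHB13, PCDHB6 and PCDHB8 followed at 0.64 to 0.96, 0.64 to 0.94 and 0.66 to 0.85 in P15, with at most 0.36, 0.08 and 0.08 in any earlier library. PCDHB6 was at 0 in all P7 libraries, and its P15 mean of 0.758 CPM was at least 8.8-fold higher than the floor there. PCDHB9 lay at 0.55 to 0.71 in P0, 0.68 to 1.25 in P3, 0.90 to 1.19 in P7 and 0.58 to 0.90 in P15. Its P15 range overlapped or touched that of every earlier phase, whereas P7 was above P0 without overlap. PCDHB16 was at 0.04 to 0.16 in P0 and already at 0.80 to 1.00 in P3, 0.85 to 1.03 in P7 and 0.68 to 1.12 in P15.

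The alpha protocadherins that the rule takes, those named PCDHA with a number, were low throughout. All 13 genes were listed at 0 in the 4 P0 libraries, and 11 of the 13 had a value above 0 in at least 1 P15 library. The sum over these 13 genes, which need not be the whole cluster, was 0 CPM in P0, 0.052 ± 0.041 CPM (SD, n = 4) in P3, 0.096 ± 0.132 in P7 and 1.59 ± 0.26 in P15. PCDHA4 made up most of the P15 sum. It was at 0.73, 0.92, 0.98 and 0.93 in P15, at 0.07 in P3 replicate 2 and at 0.00 in the other 11 libraries. Its P15 mean of 0.857 CPM was at least 9.81-fold higher than the floor in P0. PCDHA3, PCDHA11 and PCDHA2 also had all P15 libraries above all others, at 0.14 to 0.24, 0.06 to 0.20 and 0.06 to 0.19, which is a few counts per library. PCDHA1, at the head of the cluster, was at 0 in P15 and had 0.16 as its highest value, in P7 replicate 3.

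**Figure D4:**
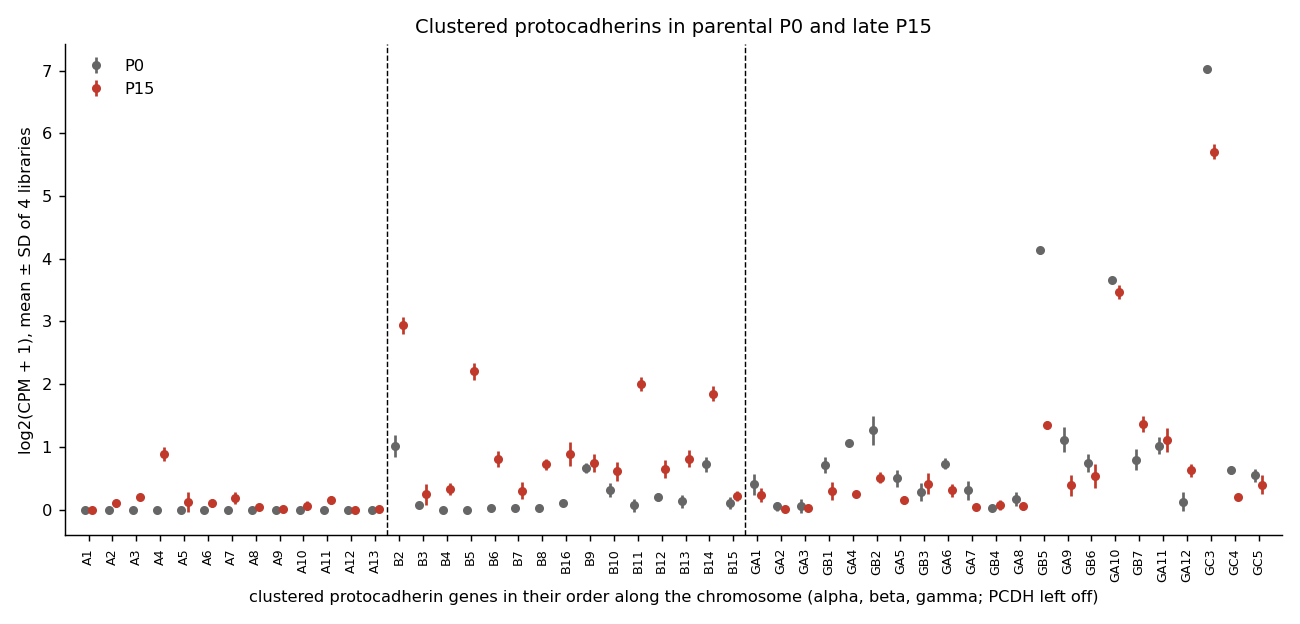
Mean log2(CPM + 1) ± SD of 4 libraries in P0 and P15 for the 50 clustered protocadherins that the rule takes, in their order along chromosome 5 with dashed lines between the alpha, beta and gamma clusters. Beta genes such as PCDHB2 and PCDHB5 were higher in P15, gamma genes such as PCDHGB5 and PCDHGC3 were lower, and genes of both kinds stood beside genes with overlapping values.

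Gamma protocadherins were divided. Among the 22 genes, all P15 libraries were below every other library in 9 (PCDHGA10, PCDHGA9, PCDHGA4, PCDHGA6, PCDHGA5, PCDHGB5, PCDHGB2, PCDHGB1 and PCDHGC3) and above in 1 (PCDHGA12), with neither in the other 12, beside 13% below and 17.6% above over all rows. The gamma A and B sum over 19 genes was 37.2 ± 1.8 CPM (SD, n = 4) in P0, 40.4 ± 1.4 at P3, 41.1 ± 1.7 at P7 and 17.6 ± 1.1 at P15. PCDHGB5 alone went from 16.6 CPM in P0 to 1.55 CPM in P15 and made up most of this difference. Of the 8 tested gamma genes, 5 were lower in P15 than in P7 and 2 lower than in P0, where 12.1% and 11.4% of all genes tested were lower. Among the 5, PCDHGA4 entered the test only through its P7 libraries. The counts of separated beta, alpha and gamma genes were the same without P3 replicate 3.

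PCDHGC3 (chr5:141475947-141512977), one of the C-type genes that neurons express without random choice, was the most abundant clustered member. It lay at 6.98, 7.07, 6.97 and 7.05 in P0, 6.36, 6.24, 6.37 and 6.28 at P3, 6.87, 6.84, 6.96 and 6.91 at P7 and 5.69, 5.62, 5.88 and 5.64 at P15. The 4 phases did not overlap. PCDHGC3 was lower in P15 than in P0 and P7 (log2 differences -1.31 and -1.19, SE 0.05; limma, adjusted p = 3.3e-18 and 2.1e-17), and its P3 dip (-0.71 against P0) stayed short of 2-fold. CDH13 likewise had P3 below P0 and P7 and P15 below all, but its P0 and P7 libraries overlapped.

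PCDHGB5 (chr5:141397947-141512975) was at 4.10, 4.22, 4.10 and 4.12 in P0, 3.91, 3.72, 3.76 and 3.72 at P3, 3.75, 3.52, 3.61 and 3.76 at P7 and 1.36, 1.41, 1.37 and 1.25 at P15. P3 and P7 overlapped, P0 was above and P15 far below both. It fell by 2.31 ± 0.07 (SE) on the log2 scale from P7 to P15 (limma, adjusted p = 1e-19) and was lower than in P0 (-2.79, adjusted p = 2.6e-21), with means of 16.6 CPM in P0 and 1.55 CPM in P15. Further along the cluster, PCDHGA10 (chr5:141412987-141512975) kept most of its level, with 3.64 to 3.74 in P0, 3.70 to 3.97 in P3, 3.99 to 4.15 in P7 and 3.34 to 3.58 in P15, and it was not called in any comparison (log2 difference of P15 from P0 -0.20, adjusted p = 0.0097). Of the exon bases of each, 2177 are shared with the other gamma genes.

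PCDHGA4, PCDHGA9 and PCDHGB2 were lower in P15 than in P7 (log2 differences -1.15, -1.13 and -1.20; limma, adjusted p = 4.2e-09, 4.3e-09 and 6.5e-10), and all 3 calls were lost with a pseudocount of 5 (-0.36, -0.37 and -0.42). In P15 they lay at 0.22 to 0.30, 0.17 to 0.58 and 0.39 to 0.61, and in all other libraries at 0.98 to 1.77, 0.85 to 1.73 and 0.96 to 2.11. PCDHGA4 would not have reached a mean of 1 CPM without its P7 libraries, where it was highest, so its call is a description of it. PCDHGA6, PCDHGB1 and PCDHGB6, below 1 CPM on average, had P15 ranges of 0.22 to 0.46, 0.15 to 0.49 and 0.41 to 0.83 against 0.66 to 1.28, 0.52 to 1.22 and 0.64 to 1.46 elsewhere, and the P15 range of PCDHGB6 reached into the others. PCDHGB7 and PCDHGA11 were not lower: PCDHGB7 had 1.26 to 1.54 in P15 against 0.59 to 0.99 in P0, and PCDHGA11 had 0.95 to 1.39 against 0.88 to 1.15 (log2 difference 0.09, adjusted p = 0.47).

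**Figure D5:**
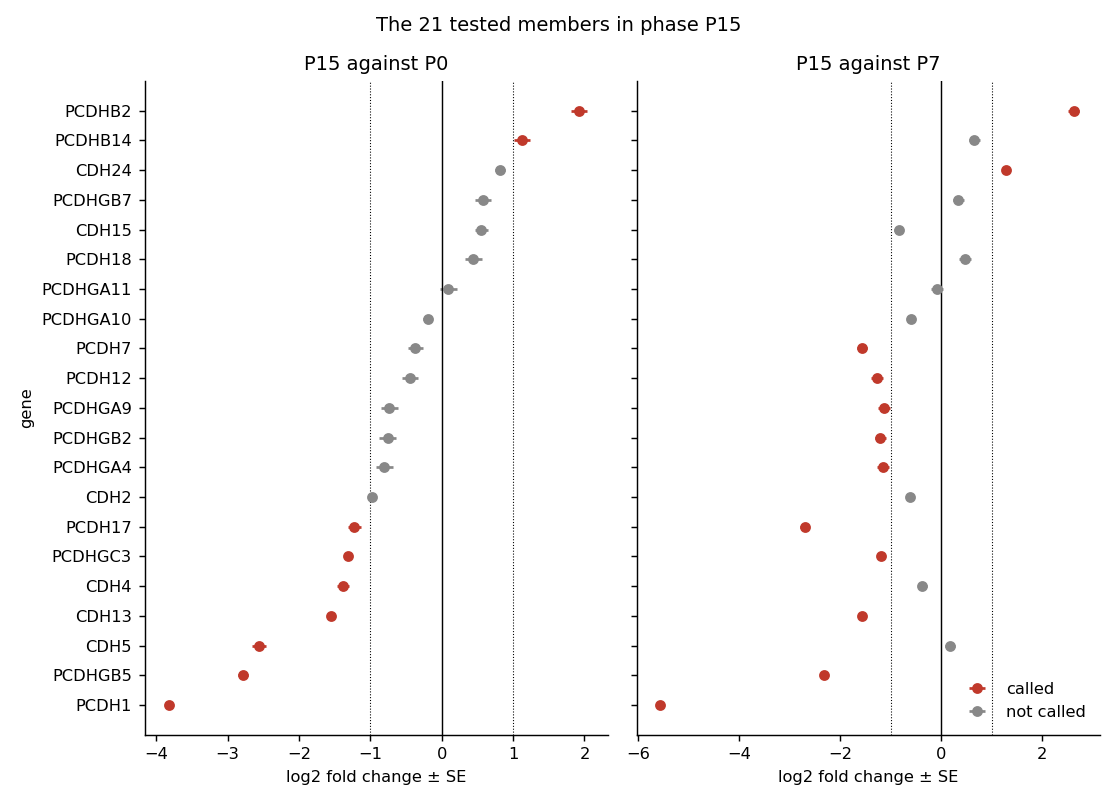
Log2 fold change ± SE of the 21 tested members between P15 and P0 (left) and between P15 and P7 (right), in the order of the left panel, with dotted lines at 2-fold and the called genes in red. PCDH1 lay at -3.82 and -5.56, and PCDHB2 at 1.93 and 2.62.

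The 54 members that are not named individually by the rule had means of at most 0.683 CPM and a highest single value of 1.13. Over all 83 detected members, 17 had all P15 libraries above and 16 all P15 libraries below the other phases, next to the 17.6% and 13% of all rows given above.

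The intracellular partners were read from lists. Of 20 adherens junction partners, 16 were tested, and P15 had 1 higher and 2 lower than P0, with a median log2 fold change of -0.22. Over all genes tested, 12.1% were higher and 11.4% lower, with a median of 0.04. JUP (gamma-catenin, which binds cadherins in junctions and desmosomes) was at 6.70 to 6.95 in P0 and 5.19 to 5.30 in P15, a log2 difference of -1.54 ± 0.05 (SE; limma, adjusted p = 1.6e-19). PTPRM, a receptor phosphatase that associates with cadherins, was at 6.76 to 6.86 in P0, 6.98 to 7.10 in P7 and 2.23 to 2.29 in P15 (-4.55, adjusted p = 3.8e-31), and the related PTPRF was at 8.30 to 8.40 in P0 and 10.40 to 10.46 in P15 (2.07, adjusted p = 5e-24). The same 3 genes were called between P15 and P7, where 13.4% of all genes tested were higher and 12.1% lower.

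Among 25 superfamily relatives with values, 14 were tested, with 5 higher in P15 than in P0 (CELSR1, FAT4, CLSTN3, FAT1 and CELSR3) and 4 lower (DSC3, FAT3, CELSR2 and RET). The shares over all genes tested, 12.1% higher and 11.4% lower, stand beside this list and those that follow. DSC3, a desmosomal cadherin, was at 2.58 to 3.14 in P0, 0.92 to 1.19 in P7 and 0.00 in all P15 libraries. CELSR1, of planar cell polarity, was called already at P3 (2.04, adjusted p = 1.7e-18). Of 12 genes of cadherin shedding and trafficking, ADAM17, a membrane protease, was the 1 called between P15 and P0 (1.01, adjusted p = 1.2e-17). Of 13 regulators of clustered protocadherin promoters, among them CTCF and the cohesin subunits, ZNF274 was the 1 called (2.38, adjusted p = 8.2e-20), with 2.88 to 3.16 in P0 and 5.32 to 5.54 in P15. This zinc-finger protein recruits a histone methyltransferase to chromatin. CTCF, named here because it binds the promoter element, differed by 0.02 between P15 and P0 (adjusted p = 0.69), by -0.48 between P7 and P0 (adjusted p = 1.6e-11) and by 0.50 between P15 and P7 (adjusted p = 1.4e-12). The list median between P15 and P0 was -0.39, and the cohesin genes SMC1A, STAG1 and STAG2, named after their values were seen, were at -0.82, -0.90 and -0.68, short of 2-fold. Among 4 tested transcription factors of epithelial-mesenchymal transition, P15 had SNAI1 and ZEB1 higher than P0 (1.83 and 1.52) and ZEB2 lower (-2.28). SNAI2 was not called in this comparison. Against P7, SNAI1 and ZEB1 were higher in P15, and ZEB2 and SNAI2 were lower. The study lists SNAI1, ZEB1 and ZEB2 as upregulated in P15, which for ZEB2 is the other direction. The lists were chosen with results of these data known, and their counts are descriptions.

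Markers of cell identity moved with P15 as well. Of 14 urothelial and epithelial markers, 7 were tested and 6 were lower in P15 than in P0 (KRT19, KRT7, GATA3, KRT8, PPARG and EPCAM), with the list summing to 2178 to 2251 CPM in P0, 2419 to 2553 in P3, 1775 to 1921 in P7 and 695 to 772 in P15. Over all genes tested, 11.4% were lower and 12.1% higher in this comparison. The uroplakins UPK1B and UPK3A, which define differentiated urothelium, were at or near 0 in all phases, including P0, and UPK1A was at 0.04 to 0.22 in P0 and 1.41 to 1.74 in P15. Of 7 fibroblast markers, 3 were tested, and P15 had more COL3A1 and COL1A1 RNA than P0 (log2 differences 4.51 and 2.05). PDGFRB, also tested, was not called between P15 and P0. The list summed to 46.6 to 51.7 CPM in P15 against 7.08 to 8.34 in P0. COL1A2, LUM, PDGFRA and DCN had no phase mean above 1 CPM, and DCN was at 0.00 in all P15 libraries. Leukocyte markers summed to at most 0.20 CPM in any library. Of the neural markers NCAM1 was higher (1.96, adjusted p = 1.7e-21), and the list summed to 64.3 to 72.8 CPM in P15 against 17.4 to 19.1 in P0. In bulk RNA fewer cells of a kind and less RNA per cell cannot be told apart, and the part of these marker changes in the cadherin and protocadherin differences was not tested.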

How the data were processed

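The authors aligned reads to GRCh38 with STAR 2.6.1a, counted them on genes with featureCounts and deposited the log2 of CPM (counts scaled to the library total) with 1 added, given to 2 decimals for 39007 rows. Their methods also name quantile normalization and median centring, which these values do not carry. Their strand and multi-overlap settings are not given in the sources used here. Phases were compared on these log2 values with limma 3.58.1 in R 4.3.3 (1 coefficient per phase, 16 libraries, trended variance prior, two-sided, Benjamini-Hochberg over 13249 genes whose mean exceeded 1 CPM). A call needs adjusted p below 0.05 and a change of 1 log2 unit or more. The procedure was tested on simulated data. Tables and figures were made in Python 3.11.15 with pandas 2.3.3 and matplotlib 3.10.9. Library totals were estimated from the spacing of low values, and 33.8 to 50.02 (in units of 1e6 counts) set the precision of a value. Groups come from the phase in the labels and replicate numbers from the sample descriptions. Named are members with a mean, or a phase mean, above 1 CPM, CDH1, CDH2 and CDH3, of the rest the highest few (other alpha, beta and gamma genes, CTCF, cohesin genes and cell markers were named after their values were seen), and at most 5 called genes per partner list with the largest P15 to P0 change. Members, lists and tests were chosen with earlier results of these data known. Alternatives were other pseudocounts, filters and scalings, a replicate block, no variance trend, phases compared alone, no fold threshold and each library left out.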

Additional observations from a re-analysis of the deposited data

Results flagged for a closer look

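In 13 of the 115 groups of 4 libraries with named members, 1 library stood apart from the other 3 by Dixon's ratio (the gap to the nearest library over the range of the group, above its critical value for 4 values), where chance gives about 1 in 20 groups, or 6. This rate holds for unrounded values. Rounding to 2 decimals and values at 0 make ties, which can give a ratio of 1.0 by themselves, so 13 and 6 are not strictly comparable. Parental P0 held PCDHGA10 replicate 2 at 3.74 against 3.64 in the others (ratio 1.0), PCDHGB5 replicate 2 at 4.22 with the nearest at 4.12 (0.8333), PCDH7 replicate 4 at 1.61 with the nearest at 1.28 (0.9167), PCDHB9 replicate 3 at 0.55 with the nearest at 0.69 (0.875), PCDHGB1 replicate 3 at 0.52 with the nearest at 0.76 (0.9231) and CDH1 replicate 3 at 0.00 with the nearest at 0.07 (0.875). Early P3 held PCDHGA9 replicate 2 at 1.38 with the nearest at 1.6 (0.88), PCDHB5 replicate 3 at 0.07 with the others at 0.00 (1.0), CDH3 replicate 3 at 0.20 with the nearest at 0.56 (0.878) and CDH1 replicate 3 at 0.07 with the others at 0.00 (1.0). PCDHGA4 in P7 replicate 1 was at 1.77 with the nearest at 1.32 (0.8491). In P15, replicate 4 had CDH5 at 0.29 with the nearest at 0.15 (0.875) and PCDHGB6 at 0.83 with the nearest at 0.47 (0.8571). P3 replicate 3 appears 3 times in this list, all at levels below 1 CPM.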

How the results depend on the processing

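Of 2835 values under alternatives, 2779 kept their direction and side of the threshold. The filters, the replicate blocks, the fit without a variance trend and the phases compared alone cannot alter a log2 fold change, only its adjusted p. Their values therefore raise this share. A pseudocount of 5 made 18 values weaker and left 87 the same, and a pseudocount of 0.1 made 12 stronger and left 93 the same. Numbers of called members changed by more than 1.5 times as follows. With a pseudocount of 5, P3 had 1 higher than P0, P7 had 0 higher and 0 lower than P3, P15 had 5 lower than P7, P15 had 0 higher than P0, and P7 had 1 higher and 1 lower than P0. With a pseudocount of 0.1, P3 had 2 lower than P0, P7 had 2 lower than P3, and P15 had 4 higher and 11 lower than P0. With a filter at a mean of 0.1 CPM, with no filter, or with above 1 CPM in at least 4 libraries, P15 had 4 higher than P7 and 4 higher than P0. Quantile normalization left 1 higher in P15 and 1 lower in P7 against P0, and the median shift 1 lower in P7 against P0. Without a fold threshold, higher and lower were 11 and 7 (P3 to P0), 7 and 6 (P7 to P3), 10 and 7 (P7 to P0), 6 and 14 (P15 to P0), and 5 higher for P15 to P7. Leaving out each library gave the full count in every comparison except 1 to 2 lower in P7 against P0, where CDH4 was lost. A larger pseudocount compresses low genes by construction, and other causes were not tested.

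Differences that were near 0 and not passed changed sign in 20 cases. CDH13 between P7 and P0 became -0.0053 (quantile normalization), -0.0025 (without P0 replicate 1), -0.0058 (without P0 replicate 3) and -0.0025 (without P7 replicate 2; the range without 1 library reached 0.0275), and PCDH18 there 0.0228, 0.0567, 0.02 and 0.0417 (quantile normalization, without P0 replicate 1, P0 replicate 4 and P7 replicate 4). Between P7 and P3, PCDH7 became -0.081 (quantile normalization), -0.0083, -0.015, -0.0025 and -0.0025 (1 library left out), PCDHGB2 0.0292 (range -0.1375 to 0.0292), PCDHGA9 0.015 and 0.025 (-0.115 to 0.025), PCDHGA11 -0.065 (-0.065 to 0.1183) and PCDHGA4 -0.0017 (-0.0017 to 0.2083), all with 1 library left out. PCDHGA11 between P15 and P0 became -0.0173 (quantile normalization) and -0.0017 (without P15 replicate 3, range -0.0017 to 0.145).

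With the replicate block, P15 had 2 members higher and 7 lower than P0, as without it, and neither the description's number nor the title's changed a count of calls. Same-numbered libraries of different phases were correlated at -0.147 to 0.218, and differently numbered ones at -0.148 to 0.146. The ranges overlapped widely, but the highest same-numbered value lay above every differently numbered one. Pairing was thus not shown and not settled, and the samples are known to share a number only. The alternatives added after seeing the data, a scaling of libraries to the same median and the omission of P3 replicate 3, left the counts of members with separated P15 libraries at 17 above and 16 below. At 1 count per 0.02 to 0.0296 CPM, depth limits what can be said of the alpha genes.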
